A study of Rattus norvegicus with 23 samples.

Results

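The 10 genes described here encode the transcription factors that the study named for the left atrium (LA) of the rat, together with close paralogs: the forkhead factors *Foxc1* and *Foxc2*, the odd-skipped related zinc finger factors *Osr1* and *Osr2*, the orphan nuclear receptors *Nr2f1* and *Nr2f2*, the SoxD factor *Sox5*, the ETS factor *Etv1*, the BTB zinc finger factor *Zbtb7c* and the estrogen receptor *Esr1*. They were chosen by name, with earlier results of these data known. Their probes were found through the transcript accessions that the array design gives. The members make up 10 of the 16544 genes that could be named this way, and 15 probes measured them. All 10 passed the filter on dim genes, which left 16089 genes to test. *Sox5* had 3 probes, *Foxc1*, *Nr2f1* and *Nr2f2* had 2 each, and the other 6 genes had 1 each. Total RNA came from 6 regions of the heart and its great vessels of untreated male Wistar rats, and each RNA was labelled with 1 dye and hybridised to 1 Agilent array. There were 4 arrays each of LA, left ventricle (LV), sinoatrial node (SA), pulmonary vein (PV) and pulmonary artery (PA) and 3 arrays of the right ventricle (RV), taken from its free wall, 23 in all. The methods give 12 rats of 8 to 11 weeks, an SA sample pooled from 2 rats, and LV masses that were each cut into 3 pieces as samples. Since no label ties an array to an animal, the arrays of a region may share rats, and p-values measure the spread between these samples only.

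COUP-TFII, the product of *Nr2f2*, is required in atrial myocytes to maintain atrial rather than ventricular identity, and with its paralog COUP-TFI (*Nr2f1*) it binds direct repeats of the nuclear receptor half-site and can oppose retinoic acid receptors. *Osr1* acts in the hedgehog-responsive mesoderm that gives rise to the atrial septum and the venous pole, *Foxc1* and *Foxc2* act in the outflow tract and in vessel and lymphatic development, and *Etv1* is a target of growth factor signalling that is required for rapid conduction in the atria and the Purkinje system. *Sox5* lacks a transactivation domain and works as an architectural partner of other Sox proteins, and *Esr1* encodes a ligand-activated receptor.

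Values are log2(intensity + 1) of the deposited normalized signal, with the highest probe of a gene taken on each array, and differences are between means on that scale with their standard error (SE) and limma's Benjamini-Hochberg adjusted p over all genes tested. V stands for the mean of LV and RV, 7 arrays. Labelled regions were checked against defining genes: *Myl7*, the atrial myosin light chain, was 18.83, 19.30 and 19.09 on average in LA, SA and PV against 15.73 in LV, *Irx4*, a ventricular transcription factor, was 12.44 in LV and 12.31 in RV against 5.52 or less elsewhere, and *Myh11*, the smooth muscle myosin, was 17.50 in PA against 13.95 or less elsewhere. The pacemaker channel gene *Hcn4* was highest in SA (10.34) but also stood at 9.52 in LV. None of 6 atrial myocyte markers passed the test between PV and LA. Between 58.6% and 79.8% of probes were well above background on an array. That share was 72.7% to 79.8% on the first row of arrays of a slide and 58.6% to 69.4% on the second row, and each region had arrays on both rows.

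All 10 genes were higher in LA than in V, against 35.4% of all 16089 genes that differed in either direction (limma, adjusted p below 0.05). The median difference of the 10 genes was 1.76, against -0.09 for all genes tested. In PV, 9 of the 10 genes were higher than in V, with *Foxc1* as the exception (33.9% of all genes differed), and in SA 8 of the 10 were higher, with *Foxc1* and *Foxc2* as the exceptions (28.1%). The medians were 1.44 in PV and 1.18 in SA. The 3 comparisons share the ventricular arrays. Since the study picked *Foxc1*, *Foxc2*, *Sox5*, *Etv1*, *Nr2f2* and *Zbtb7c* for LA and *Osr1* and *Esr1* for SA on the LA, V and SA arrays, the direction of those differences is not independent evidence. The PV and PA arrays did not enter that choice, but the ventricular arrays they were compared with did. All 10 genes were also listed here with earlier results of these data known. Their counts and directions, in PV and PA too, are therefore not independent evidence, also beside the share of all genes. In whole tissue, fewer cells of a type and less RNA per cell cannot be told apart.

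**Figure D1:**
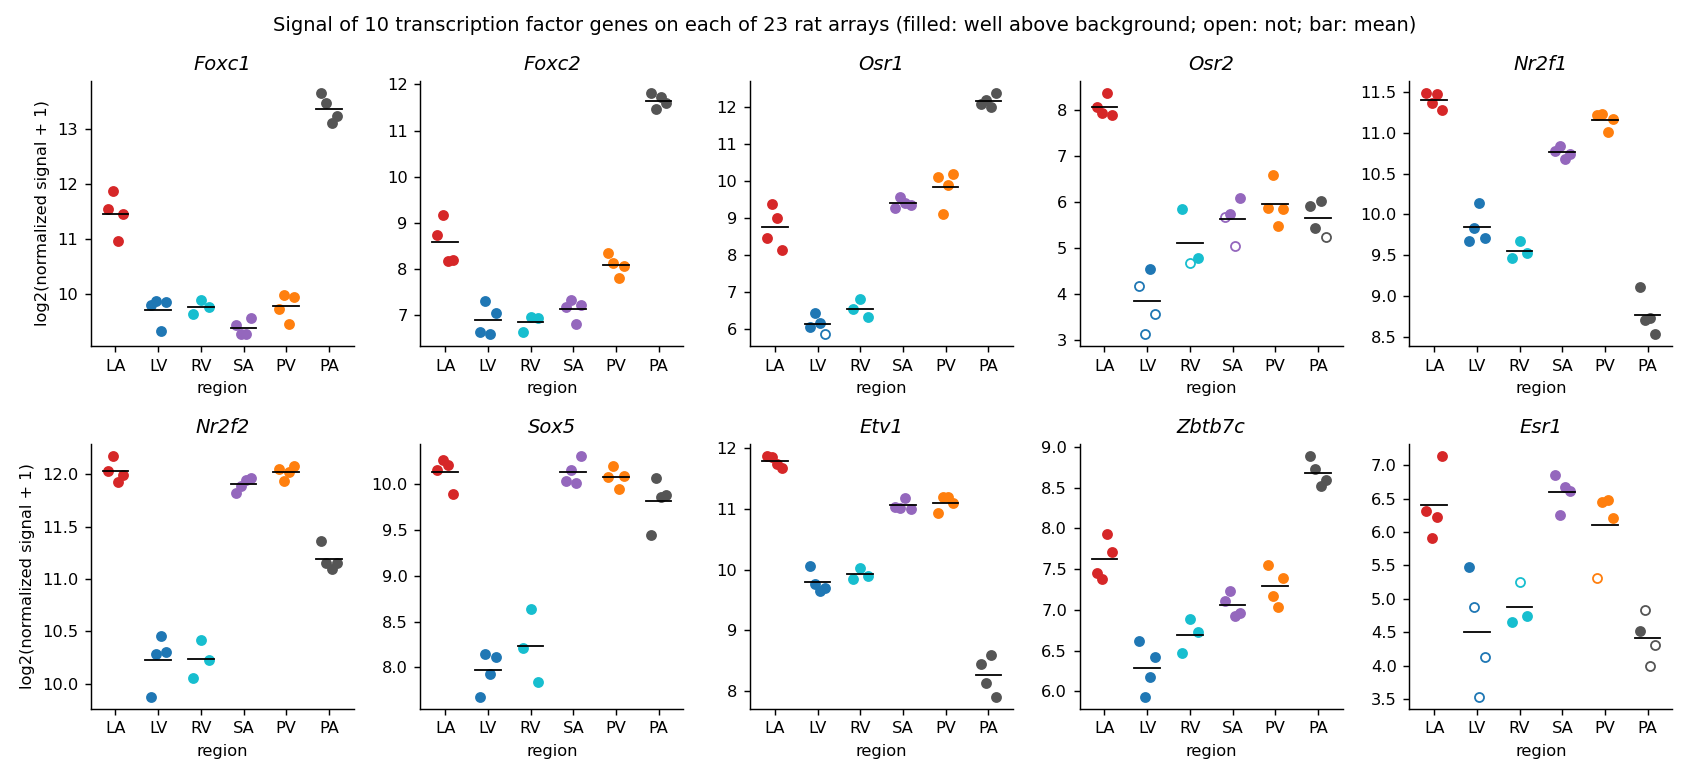
Log2(normalized signal + 1) of the 10 genes on each of 23 arrays by region (LA, LV, RV, SA, PV, PA), with a bar at the mean of a region and open points for arrays on which the gene was not well above background. The ventricular arrays were below the LA arrays for every gene, while the PA arrays were the highest for *Foxc1*, *Foxc2*, *Osr1* and *Zbtb7c* and the lowest for *Nr2f1* and *Etv1*.

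**Figure D2:**
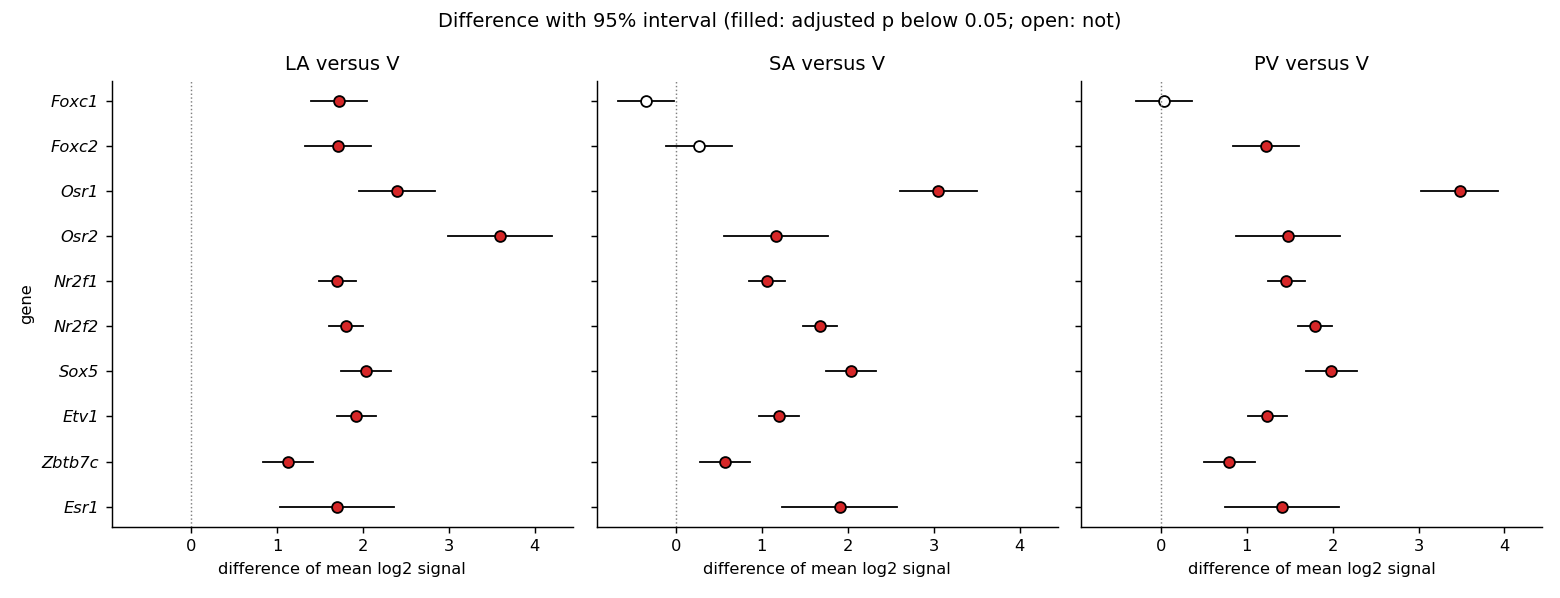
Difference in mean log2 signal of LA, SA and PV from V for each gene, with 95% intervals and filled points at an adjusted p below 0.05. Of the 30 differences, 27 passed the threshold, all of them above 0, and the other 3 were those of *Foxc1* in SA and PV and of *Foxc2* in SA.

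Among the atrial tissues and the artery the genes moved in both directions. Between LA and SA, 6 of the 10 genes differed, all higher in LA (15.3% of all genes differed): *Foxc1*, *Foxc2*, *Osr2*, *Nr2f1*, *Etv1* and *Zbtb7c*. Between PV and LA, 4 differed (13.5%), with *Osr1* higher in PV and *Foxc1*, *Osr2* and *Etv1* lower. Between PV and SA, *Foxc2* alone differed (3.49%), and it was higher in PV. When PA was set against the average of the other regions, 8 differed, next to 59.1% of all genes: *Foxc1*, *Foxc2*, *Osr1*, *Zbtb7c* and *Sox5* were higher in PA, and *Nr2f1*, *Etv1* and *Esr1* were lower, in each case relative to that average. Between LV and RV, none of the 10 passed the threshold (0.522% of all genes did), and 3 of the 10 had an unadjusted p below 0.05, as did 1727 of all genes. In the F-test over the 6 regions all 10 passed (64.4% of all genes), and over LA, V and SA all 10 passed (40.5%).

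**Figure D3:**
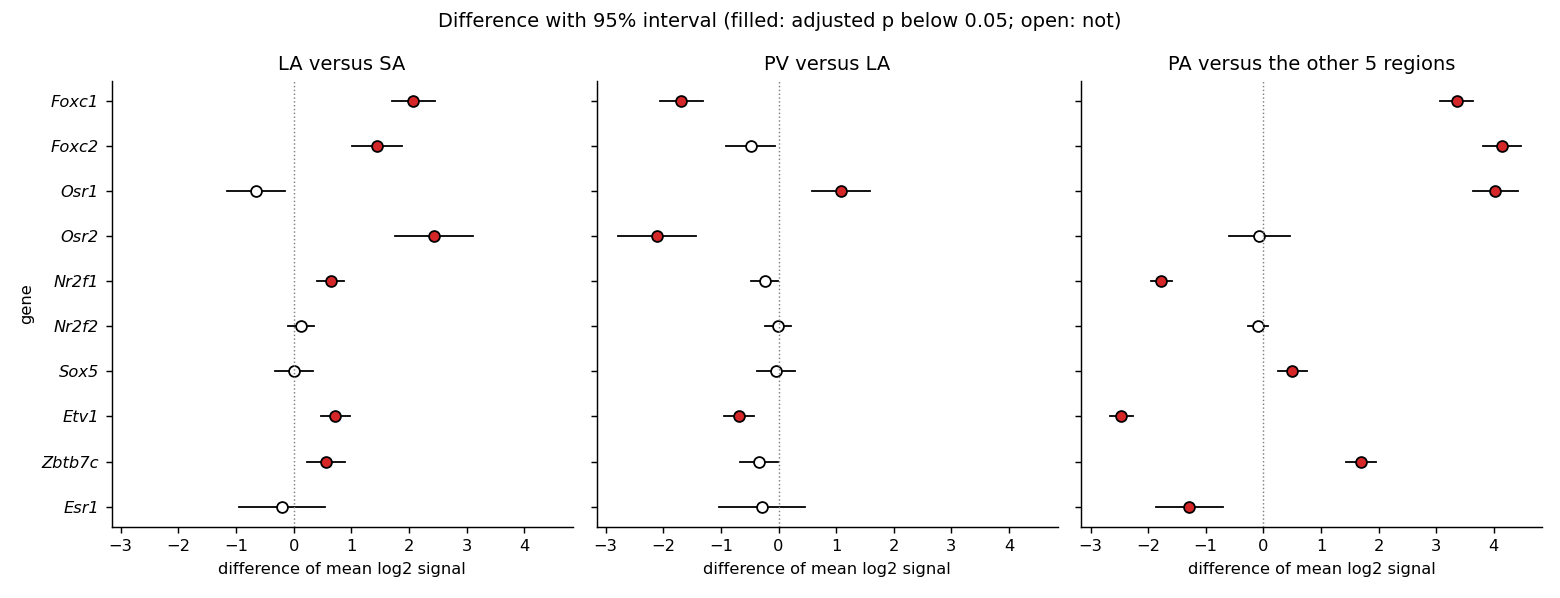
Differences in mean log2 signal of LA from SA, of PV from LA and of PA from the average of the other regions, with 95% intervals and filled points at an adjusted p below 0.05. In the PA panel the genes split into 5 above 0, 3 below 0 and *Osr2* and *Nr2f2* at the line.

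Array row, slide and single arrays were checked for each of the 46 differences that passed between pairs of groups. All 46 kept their direction within the first row and within the second row, and 29 and 37 of them passed there with fewer arrays. The first row held 3 LA arrays but 1 each of SA and PV, and the second row 1 each of LA and RV and 3 each of SA and PV, so that within a row LA was compared with SA and PV over a single array on 1 side, assumed to vary like the other regions. Within the slides, each of the 11, 46 and 46 differences that could be fitted kept its direction as well, over 1 or 2 arrays of a region.

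*Foxc1*, a forkhead factor of the outflow tract and the vessel wall, was at 11.54, 11.86, 10.96 and 11.46 on the LA arrays. It was at 9.80, 9.86, 9.32 and 9.85 in LV and at 9.63, 9.88 and 9.76 in RV, so that no LA array overlapped with the ventricles. In SA it was at 9.43, 9.27, 9.26 and 9.55, and in PV at 9.72, 9.97, 9.44 and 9.94. PV overlapped with both ventricles, whereas SA lay below RV and overlapped with LV only through LV replicate 3. The highest values were those of PA, with 13.65, 13.46, 13.10 and 13.24. *Foxc1* was thus 3.30-fold higher in LA than in V (1.72 ± 0.15 SE, adjusted p = 4.47e-08) and 4.22-fold higher in LA than in SA (2.08 ± 0.17 SE, adjusted p = 3.30e-07), and it was 3.22-fold lower in PV than in LA (adjusted p = 3.51e-06). PV and V differed by 0.04 with a 95% interval of -0.29 to 0.36. SA was below V by a difference of -0.35 that missed the threshold (adjusted p = 0.0999), which passed at 0.0281 with the replicate number as a block and at 0.0445 without LV replicate 3. PA exceeded LA by 1.91 ± 0.17 SE (adjusted p = 1.20e-08). Both probes of *Foxc1* showed the differences of LA from V (1.72 and 1.68) and from SA (2.08 and 1.76), while for SA against V they gave -0.35 and -0.08.

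*Foxc2*, its paralog, with a leading role in lymphatic valves, was at 8.74, 9.18, 8.18 and 8.20 in LA and at 6.63, 7.31, 6.59 and 7.04 in LV. RV was at 6.63, 6.96 and 6.95, and SA at 7.17, 7.33, 6.80 and 7.23, which overlapped with both ventricles. In PV the 4 arrays were at 8.35, 8.13, 7.81 and 8.06, above every SA and ventricular array. PA was at 11.81, 11.46, 11.73 and 11.60. *Foxc2* was 3.26-fold higher in LA than in V (1.71 ± 0.18 SE, adjusted p = 4.42e-07) and 2.33-fold higher in PV than in V (1.22 ± 0.18 SE, adjusted p = 3.00e-05), and PA exceeded LA by 3.08 ± 0.21 SE (adjusted p = 1.07e-10). PV exceeded SA by 0.96 ± 0.20 SE (adjusted p = 0.0145), a call that was lost without SA replicate 3 (0.85, adjusted p = 0.0562), with normexp background correction (0.59, adjusted p = 0.0570) and in a fit of the compared arrays alone (adjusted p = 0.0564). PV and LA differed by -0.49, which did not pass (adjusted p = 0.138, 95% interval -0.92 to -0.05).

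The 2 forkhead genes therefore stood apart in PV when set side by side: *Foxc1* differed from V by 0.04 there and *Foxc2* by 1.22, while in LA the values were 1.72 and 1.71. Whether the paralogs differ in these contrasts was not tested. Of the 19 other forkhead factors measured, 2 were higher and 6 lower in LA than in V (35.4% of all genes differed), with a median of -0.17. *Foxp2* (0.95 ± 0.19 SE) and *Foxp1* (0.38 ± 0.07 SE) were the 2 that were higher in LA. In PA, 10 of the 19 were higher and 2 lower than in the other regions, with a median of 0.38, a count of 12 next to 59.1% of all genes. The largest of these differences was 2.01 ± 0.17 SE, that of *Foxp2*. Lymphatic endothelial markers, 4 of which were measured, differed as well. *Pdpn* and *Lyve1* were higher in LA than in SA (1.44 ± 0.19 SE and 1.35 ± 0.19 SE) and lower in PV than in LA (-1.37 ± 0.19 SE and -0.65 ± 0.19 SE), beside 15.3% and 13.5% of all genes. In LA 2 were higher and 1, *Flt4*, was lower than in V (35.4% of all genes differed). In PA 2 were higher, with *Flt4* at 2.35 ± 0.11 SE, beside 59.1% of all genes. *Prox1*, the defining factor of these cells, was the 1 that was lower there (-0.45 ± 0.07 SE). The summed signal of the 4 markers was 23360 to 26450 in LA, 23610 to 26200 in LV and 21630 to 24160 in RV. It was 18320 to 21390 in SA, 18870 to 24050 in PV and 18350 to 21070 in PA. The part of these cells in the levels of *Foxc1* and *Foxc2* was not tested.

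**Figure D4:**
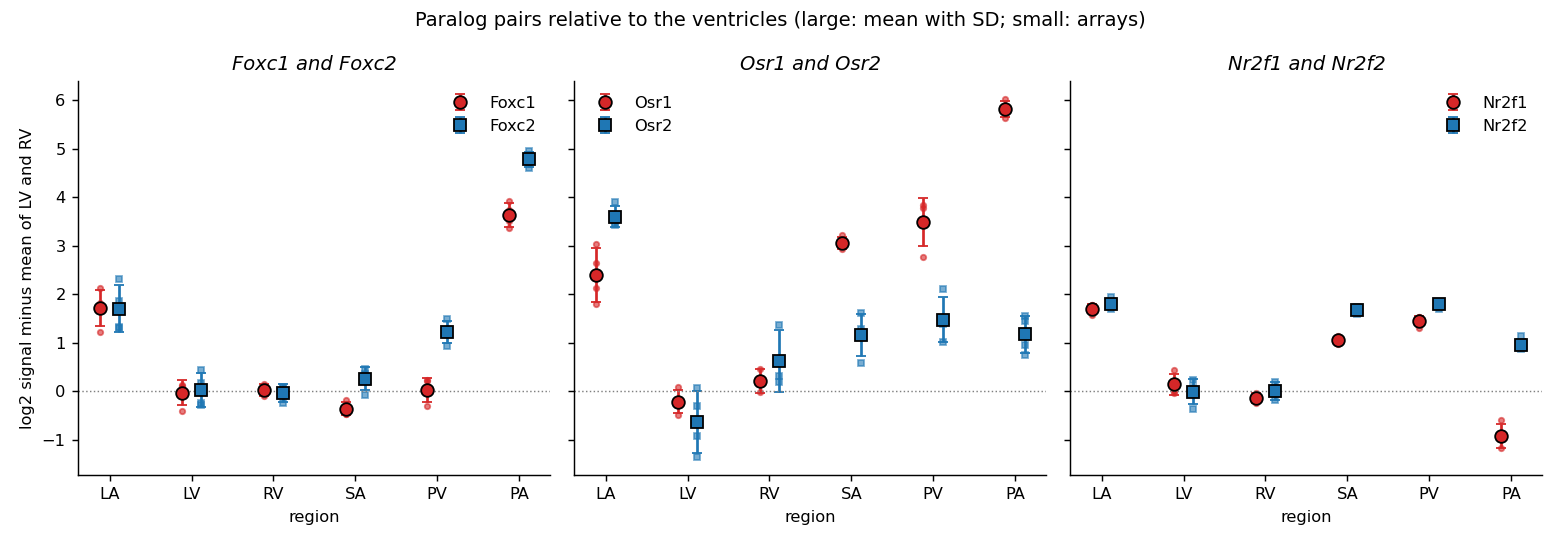
Log2 signal of *Foxc1* and *Foxc2*, *Osr1* and *Osr2*, and *Nr2f1* and *Nr2f2* relative to the mean of LV and RV, by region, with large symbols for the mean and SD of a region (n = 4, or 3 for RV) and small symbols for arrays. In LA the 2 genes of each pair lie above the ventricles, whereas in PA *Osr1* and *Osr2*, and *Nr2f1* and *Nr2f2*, lie far apart.

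*Osr1*, a factor of the posterior second heart field, was at 8.47, 9.38, 8.99 and 8.14 in LA. In LV it was at 6.07, 6.43, 6.18 and 5.87, the last of which was not well above background, and in RV at 6.53, 6.81 and 6.33. SA was at 9.28, 9.56, 9.40 and 9.36 and PV at 10.12, 9.11, 9.90 and 10.18. PA had the highest values, 12.08, 12.19, 11.99 and 12.37. The order of the means was thus PA, PV, SA, LA, RV and LV, and the ventricles did not overlap with any other region. Relative to V, *Osr1* was 5.27-fold higher in LA (2.40 ± 0.21 SE), 8.30-fold higher in SA (3.05 ± 0.21 SE) and 11.1-fold higher in PV (3.48 ± 0.21 SE, adjusted p = 2.17e-10). PV exceeded LA by 1.08 ± 0.24 SE (adjusted p = 0.00438), although their ranges overlapped and the call was lost when these 8 arrays were fitted alone (adjusted p = 0.0959). Within the first and the second array row that difference was 0.57 (1 PV array, adjusted p = 0.577) and 0.68 (1 LA array, adjusted p = 0.175). LA was below SA by a difference of -0.66 that missed the threshold (adjusted p = 0.0721), and that difference passed without LA replicate 2 (-0.87, adjusted p = 0.0191), without PV replicate 2 (adjusted p = 0.0330) and with normexp background correction (-0.62, adjusted p = 0.0252). PA exceeded the mean of the other regions 16.3-fold (4.02 ± 0.19 SE).

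Of the hedgehog and posterior heart field genes linked to *Osr1*, 8 were measured. In PA 7 of them were higher (59.1% of all genes differed), with a median of 1.39, and the transcription factor gene *Gata4* was lower (-2.06 ± 0.09 SE). *Gli1*, a transcription factor and target of the pathway, was higher by 1.85 ± 0.32 SE. In SA, where *Osr1* was 8.30-fold higher than in V, none of the 8 was higher than in V and 1, *Gli2*, was lower (-0.85 ± 0.14 SE), next to 28.1% of all genes. In LA, *Smo*, the signal transducer of the pathway, was higher than in V by 0.60 ± 0.13 SE, and it was the only one of the 8 that passed, next to 35.4% of all genes.

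*Osr2*, the paralog of *Osr1*, was brightest in LA and dim elsewhere. The 4 LA arrays were at 8.07, 7.93, 8.37 and 7.89. LV was at 4.16, 3.12, 4.54 and 3.55, with 1 array well above background, and RV at 5.84, 4.66 and 4.79, with 2. SA was at 5.66, 5.74, 5.04 and 6.07, PV at 5.88, 6.58, 5.49 and 5.86, and PA at 5.92, 5.43, 6.02 and 5.23, so that the lowest LA array lay above every other array. In SA 2 arrays and in PA 3 arrays were well above background. *Osr2* was 12.1-fold higher in LA than in V (3.59 ± 0.29 SE, adjusted p = 8.77e-09), 5.40-fold higher than in SA (2.43 ± 0.32 SE, adjusted p = 4.96e-05) and 4.33-fold higher than in PV (adjusted p = 0.000187). Of the 10 genes, *Osr2* alone differed by array row (second minus first row -0.60, adjusted p = 0.0429, against 2.55% of all genes that differed by row). Within the first and the second row, LA exceeded V by 3.28 and 3.93, and LA exceeded SA by 2.37 (1 SA array, adjusted p = 0.0861) and 2.34 (1 LA array, adjusted p = 0.0286). Values that failed the background call were raised to the lowest signal that passed it on their array, where they lay below that signal. LA then exceeded V by 3.07, and SA and PV exceeded V by 0.63 and 0.95, in place of 1.16 and 1.48. With normexp background correction LA exceeded V by 1.67.

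Mesothelial genes were highest in LA as well. Mesothelium is the epithelial layer on the surface of the heart. All 5 mesothelial markers measured (*Msln*, *Upk1b*, *Wt1*, *Lrrn4* and *Krt19*) were higher in LA than in SA (15.3% of all genes differed) and lower in PV than in LA (13.5%), and 4 of them were higher in LA than in V (35.4%). *Wt1*, the exception, was at 8.92 in LA and 9.02 in LV. The largest difference between LA and V was that of *Upk1b* (3.85 ± 0.42 SE). The summed signal of the 5 markers was 23350 to 28790 in LA, 919 to 2757 in LV, 3800 to 6626 in RV, 5814 to 10830 in SA, 3714 to 10330 in PV and 3795 to 13270 in PA. The part of these cells in the level of *Osr2*, and in that of *Foxc1*, *Foxc2*, *Nr2f1*, *Etv1* and *Zbtb7c*, which were also higher in LA than in SA, was not tested.

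**Figure D5:**
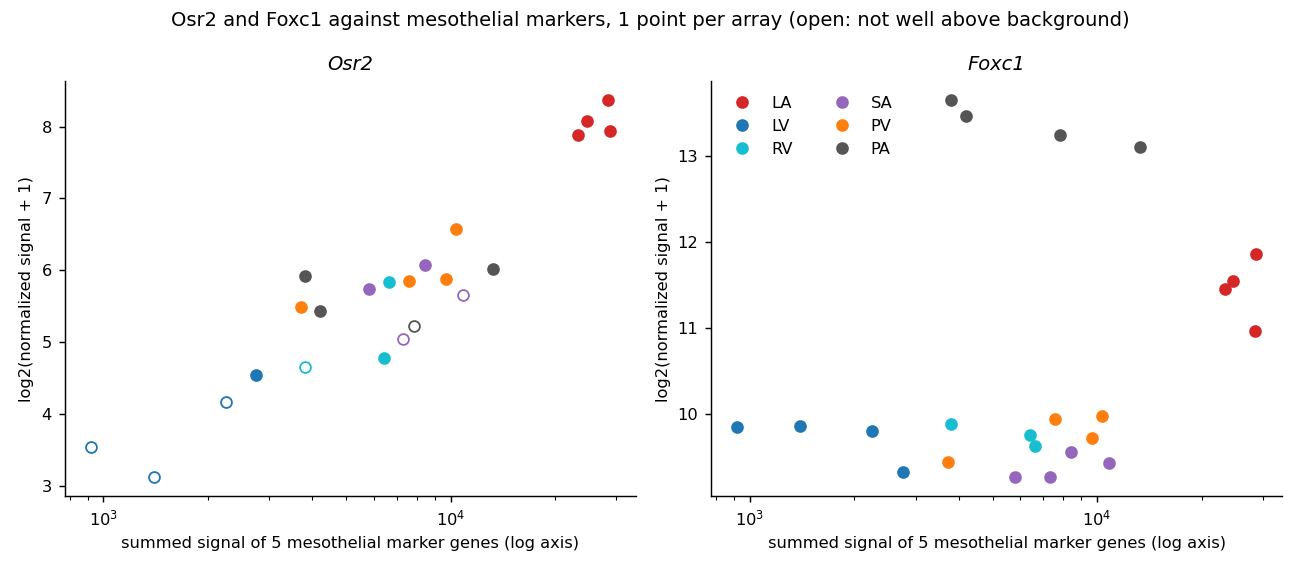
Log2(normalized signal + 1) of *Osr2* and *Foxc1* against the summed normalized signal of 5 mesothelial marker genes (log axis), 1 point per array, coloured by region and open where the gene was not well above background. The LA arrays lie at the upper right for *Osr2*, from 7.89 to 8.37, and the LV arrays at the lower left, whereas for *Foxc1* the PA arrays, from 13.10 to 13.65, lie above LA at a lower marker signal.

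*Nr2f1* was at 11.48, 11.37, 11.47 and 11.28 in LA and at 11.22, 11.22, 11.01 and 11.17 in PV. SA was at 10.77, 10.84, 10.68 and 10.74. LV was at 9.68, 9.83, 10.15 and 9.71, RV at 9.47, 9.67 and 9.53, and PA at 9.12, 8.71, 8.73 and 8.54. The 6 regions formed an order of LA, PV, SA, LV, RV and PA in which no region overlapped with the next, although LA and PV (0.24, adjusted p = 0.192), PV and SA, and LV and RV (0.29, adjusted p = 0.390) did not differ past the threshold. LA exceeded V 3.25-fold (1.70 ± 0.10 SE, adjusted p = 1.56e-10) and SA 1.56-fold (0.64 ± 0.11 SE, adjusted p = 0.000750), and PA was 3.41-fold below the mean of the other regions (-1.77 ± 0.09 SE). PV and SA differed by 0.40 ± 0.11 SE, which missed the threshold (adjusted p = 0.0601) and passed with a trend in the prior variance (adjusted p = 0.0421), with a stricter filter on dim genes (adjusted p = 0.0441), and in the fits without LV replicate 3 (adjusted p = 0.0395), without PA replicate 1 (adjusted p = 0.0295) or without PA replicate 4 (adjusted p = 0.0493). These values rest on the brighter of 2 probes. The dimmer probe showed no difference that passed, with -0.14 ± 0.44 SE for LA over V.

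*Nr2f2*, the gene of COUP-TFII, formed a plateau over the atrial tissues. Its signal ranged from 11.92 to 12.18 in LA, from 11.94 to 12.08 in PV and from 11.82 to 11.96 in SA, which overlapped. It ranged from 9.87 to 10.46 in LV and from 10.05 to 10.42 in RV, while PA stood between these levels with 11.10 to 11.36. LA exceeded V 3.48-fold (1.80 ± 0.09 SE, adjusted p = 3.07e-11). SA was 3.19-fold above V (1.67 ± 0.09 SE) and PV was 3.46-fold above V (1.79 ± 0.09 SE). LA and SA differed by 0.13 (95% interval -0.10 to 0.35), and PV and LA by -0.01 (95% interval -0.23 to 0.22). PA was below SA by 0.71 ± 0.11 SE (adjusted p = 9.20e-06) and above RV by 0.96 ± 0.12 SE (adjusted p = 5.35e-07). The 2 probes of *Nr2f2* gave 1.80 and 2.18 for LA over V but parted in PA: the brighter differed from the other regions by -0.09 (adjusted p = 0.429) and the dimmer by 0.57 (adjusted p = 0.000255). The paralogs thus had like values in LA against V and values of -1.77 and -0.09 in PA against the other regions.

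Of the other NR2 receptors, 4 were measured, and none was higher in LA, SA or PV than in V (35.4%, 28.1% and 33.9% of all genes differed). *Nr2f6*, the most similar receptor to this pair, was lower in LA than in V (-0.36 ± 0.10 SE) and lower in PA than elsewhere (-0.57 ± 0.09 SE), where *Nr2c1* was higher (0.52 ± 0.06 SE). All 18 genes of the retinoic acid pathway were measured. In LA, 5 were higher and 1 lower than in V (median 0.12), 6 of 18 next to 35.4% of all genes, with *Rbp4*, the retinol carrier, at 2.25 ± 0.36 SE, *Aldh1a2*, the main retinoic acid synthesizing enzyme of the embryonic heart, at 1.82 ± 0.22 SE (well above background on 2 of 4 LV arrays), and the degrading enzyme *Cyp26b1* at -1.39 ± 0.30 SE. Between LA and SA, 6 were higher and 2 lower in LA (15.3% of all genes differed), among them *Crabp2*, a carrier of retinoic acid (1.83 ± 0.32 SE), and *Aldh1a2* (1.07 ± 0.24 SE). *Rbp4* (-1.46) and *Rdh10*, which makes retinal (-1.03 ± 0.15 SE), were lower in LA. In PA, 9 were higher and 5 lower (59.1% of all genes differed), and the receptors *Rxrg* (-5.78 ± 0.10 SE) and *Rxra* (-2.72 ± 0.11 SE) fell farthest.

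*Etv1* was at 11.87, 11.85, 11.73 and 11.68 in LA. PV was at 10.93, 11.19, 11.20 and 11.09 and SA at 11.03, 11.02, 11.19 and 10.99, which overlapped. LV was at 10.05, 9.77, 9.65 and 9.70 and RV at 9.85, 10.03 and 9.90. PA had the lowest values, 8.45, 8.13, 8.59 and 7.91. LA stood above all other regions and PA below all of them, with no overlap. *Etv1* was 3.79-fold higher in LA than in V (1.92 ± 0.11 SE, adjusted p = 9.19e-11), 1.65-fold higher than in SA (0.73 ± 0.12 SE, adjusted p = 0.000486) and 1.60-fold higher than in PV (adjusted p = 0.000866). PV and SA differed by 0.04 (95% interval -0.22 to 0.30). PA was 5.52-fold below the mean of the other regions (-2.47 ± 0.10 SE, adjusted p = 1.31e-14).

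Of the rapid conduction genes linked to *Etv1*, 3 were measured. In LA, 2 were lower than in V (35.4% of all genes differed) and all 3 were lower than in SA (15.3%). *Gja5*, the gene of connexin 40, was lower in LA than in V (-1.81 ± 0.17 SE) and than in SA (-1.82 ± 0.19 SE). In PA, where *Etv1* was lowest, *Gja5* was higher than in the other regions (2.54 ± 0.15 SE), but 2 of the 3 were lower (59.1% of all genes differed). Of 10 PEA3 relatives and genes of the fibroblast growth factor response, 1 was higher and 2 were lower in LA than in V (35.4% of all genes differed), and 5 were higher and none lower in PA (59.1%). *Fgfr2*, a receptor of these factors, was higher than in V in LA (1.41 ± 0.18 SE), SA (1.98 ± 0.18 SE) and PV (2.49 ± 0.18 SE). It was also higher in PV than in LA (1.09 ± 0.20 SE) and in PA than elsewhere (5.70 ± 0.16 SE). The feedback inhibitor *Spry4* was lower than in V in LA (-1.01 ± 0.20 SE) and in SA (-0.91 ± 0.20 SE).

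*Sox5* was higher in every other tissue than in the ventricles. It ranged from 9.89 to 10.27 in LA, from 10.02 to 10.31 in SA, from 9.95 to 10.20 in PV and from 9.45 to 10.06 in PA, and from 7.68 to 8.15 in LV and 7.84 to 8.64 in RV. The ventricles lay below every other array. LA exceeded V 4.10-fold (2.04 ± 0.14 SE, adjusted p = 1.01e-09). SA was 4.10-fold above V (2.03 ± 0.14 SE) and PV was 3.96-fold above V (1.99 ± 0.14 SE). LA and SA differed by 0.00 (95% interval -0.33 to 0.33), and PA exceeded RV by 1.59 ± 0.17 SE (adjusted p = 1.00e-07). Of its 3 probes, 2 were higher in LA than in V, by 2.04 and 1.53, and the third did not pass (0.65, adjusted p = 0.205). PA exceeded the average of the other regions, ventricles included, by 0.50 ± 0.12 SE on the first probe (adjusted p = 0.00188 over all probes), while the second gave 0.04 and the third 0.38 (adjusted p = 0.880 and 0.336). The mean of PA was 9.81, below the 10.13, 10.13 and 10.08 of LA, SA and PV, and none of these 3 differences passed. Among 11 other Sox factors, 1 was higher in LA than in V, *Sox6*, the SoxD partner of *Sox5* (0.49 ± 0.11 SE), and 7 were lower (35.4% of all genes differed), among them *Sox18* (-1.01 ± 0.18 SE), a factor of endothelial cells. Endothelial markers fell beside them, with 4 of 6 lower in LA than in V and a median of -0.84.

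*Zbtb7c*, a BTB zinc finger factor, was highest in PA. Its signal ranged from 7.38 to 7.94 in LA, 5.94 to 6.62 in LV, 6.47 to 6.89 in RV, 6.93 to 7.23 in SA, 7.04 to 7.55 in PV and 8.53 to 8.89 in PA. Relative to V, it was 2.19-fold higher in LA (1.13 ± 0.14 SE, adjusted p = 2.49e-06), 1.74-fold higher in PV (0.80 ± 0.14 SE) and 1.48-fold higher in SA (0.57 ± 0.14 SE), and PA exceeded LA by 1.06 ± 0.16 SE (adjusted p = 7.69e-06). LA exceeded SA by 0.56 ± 0.16 SE (adjusted p = 0.0183), which did not pass with normexp background correction (0.18, adjusted p = 0.190) or without LA replicate 3 (0.46, adjusted p = 0.0700), without SA replicate 3 (0.52, adjusted p = 0.0574) or without SA replicate 4 (0.53, adjusted p = 0.05002). With normexp LA exceeded V by 0.53. Of 6 other BTB zinc finger factors, none was higher in LA than in V and 2 were lower (35.4% of all genes differed), and 5 were higher in PA (59.1%), *Zbtb38* most of all (1.35 ± 0.12 SE).

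*Esr1* was close to the background in the ventricles and PA. Its signal ranged from 5.91 to 7.14 in LA, from 6.26 to 6.85 in SA and from 5.31 to 6.47 in PV, and it was well above background on 4, 4 and 3 of the 4 arrays. In LV it ranged from 3.54 to 5.48, in RV from 4.66 to 5.26 and in PA from 4.0 to 4.83, with 1, 2 and 1 arrays well above background. Relative to V, it was 3.25-fold higher in LA (1.70 ± 0.32 SE, adjusted p = 0.000273), 3.75-fold higher in SA (1.91 ± 0.32 SE) and 2.66-fold higher in PV (1.41 ± 0.32 SE), although the PV and LV ranges overlapped. With failing values raised to the lowest passing signal of their array where they lay below it, these differences were 1.46, 1.67 and 1.21. With normexp they were 0.52, 0.83 and 0.48. Within the second array row LA exceeded V by 1.03 (1 LA array, adjusted p = 0.213). LA and SA differed by -0.21 (95% interval -0.96 to 0.54), and PA was below the average of the other regions by -1.28 ± 0.28 SE (adjusted p = 0.000448). The PA difference was -1.11 with failing values raised in that way and -0.42 with normexp. LV exceeded PA by 0.09, which did not pass (adjusted p = 0.859). Of 8 genes of estrogen signalling, 1 was higher in LA than in V, the corepressor gene *Nrip1* (0.76 ± 0.10 SE), and 2 were lower, the receptors *Gper1* (-1.50 ± 0.25 SE) and *Esr2* (-1.16 ± 0.30 SE, with 3 of 4 LA and 3 of 4 LV arrays well above background), next to 35.4% of all genes.

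Neighbours in the order of a gene's levels were compared in the same fit. All 10 genes differed between LA and RV (27.2% of all genes), 9 between LA and PA (52.1%), 8 between LV and SA (26.2%) and 9 between LV and PA (55.8%). Between RV and SA 6 of the 10 differed (21.7%), and between RV and PV 8 did (25.9%). PA differed from RV, SA and PV in 8 genes each (53.6%, 53.6% and 53.4%). In the 4 genes with PA on top, PA was separated from the next region, which was LA for *Foxc1*, *Foxc2* and *Zbtb7c* and PV for *Osr1*. SA and RV did not differ past the threshold in *Zbtb7c* (0.36 ± 0.17 SE, adjusted p = 0.142), although their arrays did not overlap. For *Esr1* the break lay between PV and RV (1.22 ± 0.38 SE, adjusted p = 0.0239), and for *Sox5* between PA and RV.

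Markers of cell types other than myocytes differed in PA, PV and SA, beside 59.1% of all genes in PA, 13.5% between PV and LA, 15.3% between LA and SA and 28.1% between SA and V. All 6 smooth muscle markers were higher in PA than in the other regions, with a summed signal of 477600 to 566800 against 25650 to 69360 elsewhere, and 5 of the 6 were higher in PV than in LA, in SA than in LA and in SA than in V. Of 6 fibroblast markers, 3 were higher and 2 lower in PA, the latter being *Tcf21* (-1.25 ± 0.22 SE) and *Pdgfra* (-0.81 ± 0.17 SE), and 2 were higher in PV than in LA. In SA 2 were higher and 4 lower than in V. Their summed signal was 394700 to 433000 in PA, 260000 to 369600 in PV and 105100 to 266600 in LA, LV, RV and SA. All 4 adipocyte markers measured were higher in PA, and 3 of 4 were higher in PV than in LA and in SA than in V, with a summed signal of 2872 to 13770 in SA and 52.4 to 190.8 in LV, where none of the 4 was well above background on every array. All 4 Schwann cell markers were higher in PV than in LA, and 3 of them were lower in PA (median -1.26), as were 5 of 6 endothelial markers (median -0.87). All 4 general myocyte markers were lower in PA (median -4.73). The part of these cells in the levels of the 10 genes in PA, PV and SA was not tested.

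In the rat RefSeq annotation of the assembly GRCr8, the genes lie apart from each other: *Foxc1* at chr17:32840119-32844100, *Foxc2* at chr19:66094718-66097420, *Osr1* at chr6:38088688-38100010, *Osr2* at chr7:68372500-68380195, *Nr2f1* at chr2:9776179-9785924, *Nr2f2* at chr1:133419161-133434290, *Sox5* at chr4:178512272-179467686, *Etv1* at chr6:61316836-61408985, *Zbtb7c* at chr18:71716586-72045831 and *Esr1* at chr1:43511685-43904454. The files give no build and no probe positions. Promoter windows of 300 bases, from 250 before to 50 after a transcript start, from RefSeq were used for 6 of the 10 genes. The windows of *Foxc1* and *Osr1*, which were highest in PA, and of *Nr2f1* and *Etv1*, which were lowest there, are shown to set the regulatory sequence of the genes with opposite levels side by side. The window of *Foxc1* is chr17:32844051-32844350 (minus strand), that of *Osr1* chr6:38097401-38097700 (plus strand), that of *Nr2f1* chr2:9785875-9786174 (minus strand) and that of *Etv1* chr6:61317179-61317478 (plus strand). The windows of *Osr1* and *Etv1* begin inside the span of their gene. Capitals mark matches, on either strand, to any of 7 motifs.
Foxc1: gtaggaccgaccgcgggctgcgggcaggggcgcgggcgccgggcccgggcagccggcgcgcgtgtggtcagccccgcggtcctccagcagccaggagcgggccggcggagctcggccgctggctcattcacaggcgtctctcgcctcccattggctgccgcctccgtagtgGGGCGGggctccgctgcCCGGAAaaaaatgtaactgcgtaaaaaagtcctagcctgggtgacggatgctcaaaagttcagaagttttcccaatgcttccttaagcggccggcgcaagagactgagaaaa
Osr1: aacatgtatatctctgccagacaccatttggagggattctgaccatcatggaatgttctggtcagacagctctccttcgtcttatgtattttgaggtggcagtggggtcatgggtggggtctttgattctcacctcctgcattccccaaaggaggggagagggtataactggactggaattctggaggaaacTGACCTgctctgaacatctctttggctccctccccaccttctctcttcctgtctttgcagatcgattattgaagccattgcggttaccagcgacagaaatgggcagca
Nr2f1: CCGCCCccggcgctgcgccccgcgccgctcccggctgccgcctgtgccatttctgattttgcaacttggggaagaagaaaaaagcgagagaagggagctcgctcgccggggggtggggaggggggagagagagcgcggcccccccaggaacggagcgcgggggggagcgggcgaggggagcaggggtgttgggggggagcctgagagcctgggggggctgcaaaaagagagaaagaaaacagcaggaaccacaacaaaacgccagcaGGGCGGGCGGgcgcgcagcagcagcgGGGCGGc
Etv1: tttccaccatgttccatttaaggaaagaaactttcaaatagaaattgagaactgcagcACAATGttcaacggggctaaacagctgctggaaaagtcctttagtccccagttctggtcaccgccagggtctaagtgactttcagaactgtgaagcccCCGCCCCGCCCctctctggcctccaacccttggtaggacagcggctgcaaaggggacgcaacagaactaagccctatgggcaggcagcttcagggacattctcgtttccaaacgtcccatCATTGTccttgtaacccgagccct

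The motifs searched were the nuclear receptor half-site AGGTCA, the forkhead core GTAAACA, the SOX core ACAATG, the ETS core CCGGAA, the GATA core AGATAA, the GC box GGGCGG and the TATA box TATAAA, each with its reverse complement and with overlapping matches counted. The half-site was found in 16.2% of the 33469 promoters of the table and, of the 6 genes, in *Osr1* alone. The SOX core (13.2% of promoters) was found 2 times in *Etv1*, and the ETS core (15%) 1 time in *Foxc1*. The GC box (33.1%) was found in *Foxc1*, *Nr2f1*, *Etv1* and *Zbtb7c*. The forkhead core (3.78%), the GATA core (11.6%) and the TATA box (14.2%) had no match in the 6 windows. The windows of *Foxc1* and *Nr2f1* held 66.7% and 70.3% G and C with 32 and 27 CpG dinucleotides, while those of *Osr1* and *Etv1* held 49.7% and 52.0% with 4 and 9. The medians over all promoters were 51.7% and 7. No motif matched both *Foxc1* and *Osr1*, and the GC box alone matched both *Nr2f1* and *Etv1*.

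The genes with the most similar pattern were sought by Pearson's r of the log2 signal over the 23 arrays, which share regions, so that r describes mostly the differences between regions. The highest values were those of *Tmbim1* with *Foxc2* (0.99), *Alcam* with *Sox5* (0.99) and *Id4* with *Osr1* (0.98). *Foxc1* was followed by *Ptgs1* (0.97), *Gmds* (0.97) and *Rgs2* (0.97). *Gmds*, at chr17:32304029-32830708, is the next gene to *Foxc1* in the annotation, with 9410 bases between them, and its mean was 8.24 in LA, 6.90 in LV, 7.07 in SA, 7.52 in PV and 9.53 in PA. *Osr2* was followed by *Pon3* (0.95), *Upk1b* (0.93), a mesothelial marker, and *Itm2c* (0.93). *Nr2f1* and *Etv1* shared *Ehbp1* among their closest 3 genes (both 0.98), and *Nr2f2* and *Sox5* shared *Agpat4* (0.98 and 0.96). *Nr2f2* was also followed by *Sfrp1*, a secreted Wnt antagonist (0.98), whose mean was 13.37 in LA, 13.26 in SA and 13.67 in PV against 9.66 in LV and 9.29 in RV. *Zbtb7c* was followed by *Bscl2* (0.97), *Tmed3* (0.96) and *P3h4* (0.96), and *Esr1* by *Cuzd1* (0.93), *Dok5* (0.92) and *Tm4sf5* (0.92).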

How the data were processed

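RNA of 23 samples was measured on 1-colour arrays. The authors read the spots with Agilent Feature Extraction (11.0.1.1, per the submitters' processing notes). The deposited table holds normalized intensities on a linear scale, equal to the background-subtracted, detrended scanner intensity times 1 factor per array (0.881 to 1.52). On each array 99.2% to 99.7% of probes lay within 2% of that product. The deposited scanner intensities gave the background calls and some alternatives. No spot was saturated. The lowest scaled signal that passed the background call was 9.66 to 43.4, and the number of arrays limits the precision.

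Of 45440 probes without missing values (156 were removed), 21047 had 1 symbol through their accession in a RefSeq table. Each gene took its brightest probe per array, 1 was added and log2 taken, and genes above 4 on at least 1 array were tested (16089 over 6 regions, 15809 over LA, V and SA). Regions came from the labels and were compared with limma 3.58.1 (R 4.3.3) in 1 fit of all arrays, at a Benjamini-Hochberg adjusted p below 0.05. The 95% intervals are not adjusted. The scripts were tested on simulated data.

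The members and lists were chosen with earlier results of these data known. Named genes are the 10 members, the 3 genes most correlated with each (bright on all arrays of a region), up to 2 called genes per direction of a list, and genes that check a label. *Wt1* was named after its values were seen. Of the rapid conduction list, *Gja5* alone is named here, beside counts of the genes measured. Alternatives were other scalings, background corrections, pseudocounts (16), filters, probe choice, slide, row, a replicate block, the prior, the arrays fitted, the methods' analysis of variance and each array left out. Added after seeing the data were the third RV array numbered 4, as in the study's supplement, and the treatment of arrays that failed the background call.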

Additional observations from a re-analysis of the deposited data

Results flagged for a closer look

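Each of the 10 genes was checked for an array far from the others in LA, LV, SA, PV and PA (4 arrays each) and in V (7 arrays), 60 groups in all. In 1 of them such an array was found. *Foxc1* in LV replicate 3 was at 9.32, while the other LV arrays were between 9.80 and 9.86, and the gap took up 0.895 of the range. Chance gives about 1 such array in 20 groups. Without it, *Foxc1* was lower in SA than in V (-0.42, adjusted p = 0.0445).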

How the results depend on the processing

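The 46 differences between groups that passed kept their direction in every fit run. The call was kept in 1054 values from fits without 1 array and lost in 4, and it was kept in 724 values from other alternatives and lost in 115. Outside the fits within a row or slide, lost calls were those of *Zbtb7c* between LA and SA, *Osr1* between PV and LA and *Foxc2* between PV and SA. Normexp, which adds an offset of 50 and so shrinks differences of dim genes, moved most values that changed by over 1.5 times, among them *Osr2*, *Zbtb7c* and *Esr1* against V and *Esr1* in PA. It also gave *Osr2* 0.43 for SA and 0.45 for PV against V, 1.24 for LA against SA and -1.22 for PV against LA, *Zbtb7c* 0.34 for SA and 0.41 for PV against V, and *Foxc2* 0.95 for LA against SA. With a pseudocount of 16, *Osr2* was at 0.75 for SA against V. The count of members that differed between PV and SA was 0 with normexp and in a fit of the compared arrays alone, and 2 with the stricter filter and with a trend in the prior variance. Within the first row it was 5 for SA against V and 0 for LA against SA, PV against LA and PV against SA. Within the second row it was 2 for PV against LA and 0 for PV against SA. Within slide 1 it was 0 for LA against SA, PV against LA, PV against SA and the F-test over LA, V and SA. Within slide 2 it was 2 for LA against V, 0 for SA and PV against V and for the 3 comparisons among LA, SA and PV, 4 over 6 regions and 5 over LA, V and SA. Within slide 3 it was 0 for LA against V, 1 for SA against V, 2 for PV against V, 0 for the 3 comparisons among LA, SA and PV, and 4 over LA, V and SA. These fits have fewer arrays. Leaving out each array gave 8 to 9 members for SA against V, 5 to 7 for LA against SA and 0 to 2 for PV against SA, with 0 without SA replicate 3 and 2 without LV replicate 3, PA replicate 1 or PA replicate 4, and the other counts did not move. Over all genes, the count for LA against SA was 4902 with normexp against 2460, that for PV against SA 356 with normexp and 67 in the compared arrays alone against 562, that for PV against LA 1264 in the compared arrays alone against 2172, and that for LV against RV 137 with the stricter filter, 144 with the trend and 13 in the compared arrays alone against 84. Without 1 array the count for PV against SA was as low as 176 (PV replicate 4), with 245 to 298 without SA replicate 1, 2 or 3, and that for LV against RV was 52 without LV replicate 2 and 46 and 41 without RV replicates 1 and 2. Arrays of the same replicate number did not deviate together (median r -0.04 over 55 pairs). With the replicate block 9 members differed between SA and V in place of 8, also with the third RV array numbered 4, and no other count moved. The choice of probes by a gene name column was not run, since the scanner tables used here hold none. Signal over background limits *Osr2* in the ventricles, SA and PA and *Esr1* in the ventricles, PV and PA.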
